A study of Mus musculus with 3 samples.

Results

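Class II-low barcodes are barcodes of intimal preparations that carry transcripts of macrophage genes but almost none of MHC class II genes. They come from droplet single-cell RNA of mouse aortic arch intima, dissected at its lesser curvature, and 89 of 12082 deposited barcodes qualified. The LPS group was C57BL/6J wild-type mice given 30 µg of ultrapure LPS, the bacterial lipopolysaccharide, into a vein and taken 18 h later (1 library). The controls were untreated C57BL/6J wild-type mice (2 libraries, called control replicates 1 and 2 in the order of their records). Every library pooled cells of 5 to 10 mice of both sexes, 12 to 13 weeks old, and both the perfusion and the dissection buffer held actinomycin D, which blocks transcription.

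Macrophages take up particles and dying cells, and those of the arterial intima sit beneath the endothelium, where they can take up lipoproteins. MHC class II molecules show peptides to CD4+ T cells, and the complement genes C1qa, C1qb and C1qc are common markers of tissue macrophages in mice. Blood monocytes can enter tissue and become macrophages, and the classical kind carries Ly6c2 and Plac8. LPS is sensed by Toll-like receptor 4 and is known to induce cytokines, chemokines and, through interferon, antiviral genes.

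Members were chosen by measured values. A barcode needed at least 500 UMIs (counted RNA molecules), 300 or more detected genes and no more than 15% mitochondrial UMIs. At least 3 of 8 genes (C1qa, C1qb, C1qc, Csf1r, Cd68, Aif1, Fcer1g and Tyrobp) had to be detected and to hold at least 0.5% of the counted UMIs, which leave out mitochondrial and haemoglobin genes, Gm42418 and AY036118. At most 1 UMI of Cd3d, Cd3e and Cd3g was allowed and S100a8 with S100a9 had to stay under 1%. Of 8284 barcodes that passed the first filter 468 met these conditions, and the 89 in which H2-Aa, H2-Ab1, H2-Eb1 and Cd74 together held under 0.5% of counted UMIs are the class II-low ones. The gate genes are therefore given as values, and their place in counts over all genes is stated beside them.

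The LPS library held 71 class II-low barcodes of 232 gated ones, control replicate 1 held 7 of 62 and control replicate 2 held 11 of 174. As shares of gated barcodes these were 30.6% (24.7 to 37.0) with LPS, against 11.3% (4.66 to 21.9) and 6.32% (3.20 to 11.03) in control replicates 1 and 2. The ranges are exact 95% Clopper-Pearson limits, which hold counting error alone. The share with LPS lay above both controls. The median class II share of all gated barcodes was 1.13% with LPS, against 4.69% and 3.84% in control replicates 1 and 2, so gated barcodes as a whole carried fewer class II transcripts in the LPS library. The cut ran through a continuous range with LPS. The 3 LPS barcodes just inside it held 0.488%, 0.491% and 0.493% class II UMIs and the 3 just outside held 0.531%, 0.54% and 0.542%. In the controls the nearest were 0.353% inside and 0.704% outside in replicate 1, and 0.492% inside and 0.598% outside in replicate 2. The LPS library shared 1 cell barcode with control replicate 1 and 6 with control replicate 2, and the controls shared 2, of which 0 were class II-low in any library.

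**Figure D1:**
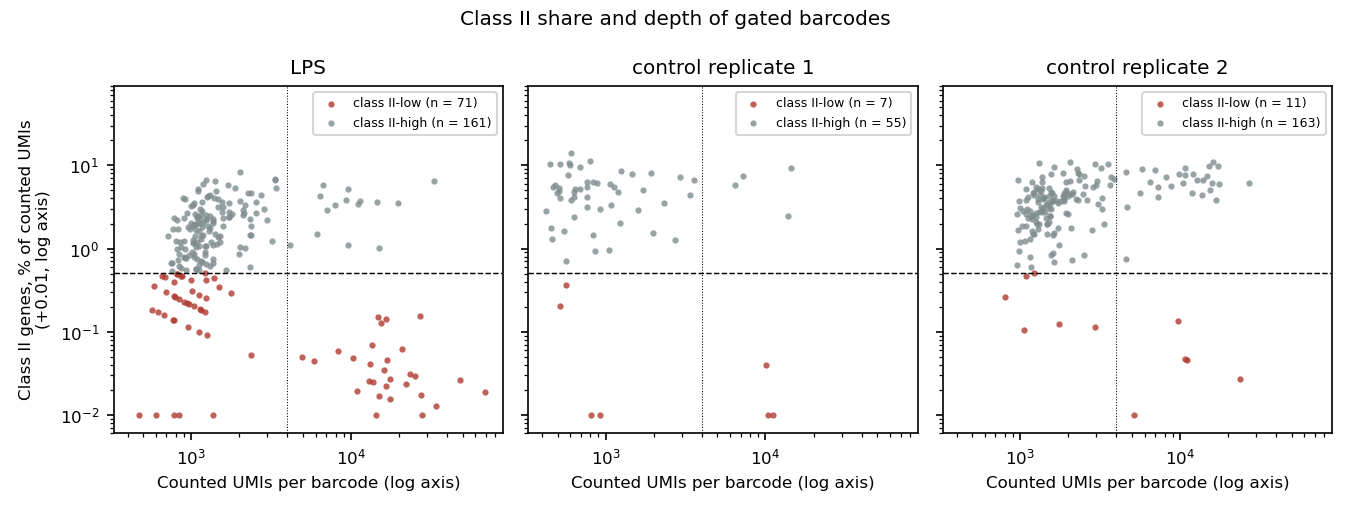
Class II share of counted UMIs (vertical, log axis after adding 0.01) against counted UMIs (horizontal, log axis) for every gated barcode of the LPS library and control replicates 1 and 2. Each point is a barcode, the dashed line is the 0.5% cut and the dotted line marks 4000 counted UMIs; the 71, 7 and 11 class II-low barcodes fall into a shallow and a deep set with a gap between them.

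Class II-low barcodes fell into shallow and deep ones with no values between. With LPS, 29 held 4953 to 69272 counted UMIs and 42 held at most 2354. In control replicate 1, 3 held at least 10003 and 4 held at most 925, and in control replicate 2, 5 held at least 5118 and 6 at most 2921. A line at 4000 UMIs, chosen after the values were seen, separates the 37 deep from the 52 shallow barcodes. The deep ones held 93.4% of the class II-low UMIs with LPS, against 91.8% and 87.3% in control replicates 1 and 2, so summed values are mainly theirs. Class II genes held at most 0.143% in each of the 37, well under the cut, while shallow barcodes reached up to 0.493%. The deepest barcode alone held 11.2% with LPS, 32.5% in control replicate 1 and 34.5% in control replicate 2.

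Shallow barcodes mostly carried C1q, which the gate uses, and had few UMIs of Csf1r or monocyte markers. C1q transcripts (at least 2 UMIs of C1qa, C1qb and C1qc together) were found in 39 of 52. Csf1r, the receptor of the growth factor that macrophages depend on, was detected in 3 of 52. Plac8 was detected in 4 of 52 and reached 10 UMIs in 0. At no more than 2921 counted UMIs such genes are easily missed, so these counts cannot be set against those of deep barcodes. Gm42418, a transcript that overlaps ribosomal RNA, took a median of 44.7% of all UMIs in the shallow LPS barcodes, against 29.6% in control replicate 1 and 2.73% in control replicate 2. In deep barcodes it took 5.01% with LPS, against 3.09% and 0.628%. Endothelial, smooth muscle and fibroblast markers together held a median of 0.887% of the shallow LPS barcodes' counted UMIs, against 0.301% and 2.67% in shallow control barcodes, and 0.0486% in the deep LPS barcodes, against 0.05% and 0.277% in deep control ones. Haemoglobin genes, which counted UMIs leave out, took up to 85.7% of all UMIs in a class II-low barcode with LPS. In control replicates 1 and 2 they took up to 0.226% and 65.5%. The part of these transcripts in the gate call was not tested.

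The label of macrophages was borne out only in part. Adgre1, the gene of F4/80, which the gate does not use, was detected in 30 of the 37 deep barcodes. Of the gate genes, which the rule partly fixes, C1q reached 2 UMIs in 15 of 37 (13 with LPS, 1 and 1 in control replicates 1 and 2) and was absent from 19, and Csf1r was detected in 35. Plac8 reached 10 UMIs in 30 of 37 (26 of 29 with LPS, against 1 of 3 and 3 of 5 in the controls). Ly6c2 reached 10 UMIs in 23, of which 22 were LPS barcodes and 1 was from control replicate 1. Ccr2, the chemokine receptor that monocytes use to leave the bone marrow, was detected in 20. Ace, Treml4 and Cd300e, which mark patrolling monocytes, together reached 3 UMIs in 16 (14 with LPS, 2 and 0 in control replicates 1 and 2). As a list, 6 patrolling genes held 0.0352% of class II-low UMIs with LPS, against 0.19% and 0.0303% in the controls. In gated barcodes above the class II cut they held 0.0288% with LPS, against 0.039% and 0.027%. Most deep class II-low barcodes thus carried monocyte markers, 10 of them beside C1q, and the group is called here by its gate. The thresholds per barcode and the genes Slpi, Prg4 and Gata6 below were chosen after their values were seen.

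Barcodes with T-cell transcripts (at least 2 UMIs of the Cd3 genes) served as a rough measure of free RNA. Transcripts that T cells make themselves, which may include Plac8 and genes that LPS induces, count there too and were not told apart. C1q reached 2 UMIs in 3 of 78 such barcodes with LPS, against 2 of 157 and 185 of 1703 in control replicates 1 and 2. Plac8 reached 10 UMIs in 4 of 78, against 4 of 157 and 17 of 1703. Their median depth was 4460 counted UMIs with LPS, against 3355 and 3634 in the controls. Plac8 was thus far rarer there than in deep class II-low barcodes, while 2 C1q UMIs were seen in 10.9% of Cd3-positive barcodes of control replicate 2. The only deep class II-low barcode there past 2 C1q UMIs had 126, and C1qa stood at 721 CPM in class II-low barcodes of that library, against 54.2 CPM in Cd3-positive ones. As whole lists, 10 monocyte genes held 0.892% of class II-low UMIs with LPS, against 0.671% and 1.05% in the controls, and 0.0536% of Cd3-positive UMIs with LPS, against 0.0304% and 0.0246%. The 10 neutrophil markers held 0.0298% of class II-low UMIs with LPS, against 0.0117% and 0.0188%, with Ly6g at 0 in all 3 libraries. The 7 smooth muscle markers held 0.0433% with LPS, against 0.0204% and 0.325%. The part of these other cell types in the results below was not tested.

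A few deep barcodes stood apart from the rest. Control replicate 2's deepest barcode, of 23873 counted UMIs, had 161 UMIs of Prg4, the gene of lubricin, 1185 of Slpi, a secreted protease inhibitor, 2044 of Lyz2 (lysozyme) and 9 of Gata6, the transcription factor gene of peritoneal macrophages. In the LPS library barcodes 2 and 3 by depth, of 48410 and 33829 counted UMIs, had 88 and 153 UMIs of Prg4. Cxcl13, a chemokine that draws B cells, had 1823 and 389 UMIs in them. Timd4, a receptor for dying cells that marks long-lived resident macrophages, had 8 and 16 UMIs there and 8 in the control barcode. Control replicate 1's deepest barcode had 186 C1q UMIs, 630 of Lyz2, 88 of Fn1 (fibronectin) and 5 of Lyve1, a marker of perivascular macrophages, and no Plac8. Lyve1 and Folr2 together reached 5 UMIs in 3 of 37 deep barcodes. In control replicate 2 the barcode ranked 5 by depth carried Nkg7 (8 UMIs) and Gzma, genes of cytotoxic lymphocytes, and held 2.15% NK-cell and innate lymphoid markers. Each control sum thus rested on 3 or 5 deep barcodes of unlike kinds.

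**Figure D2:**
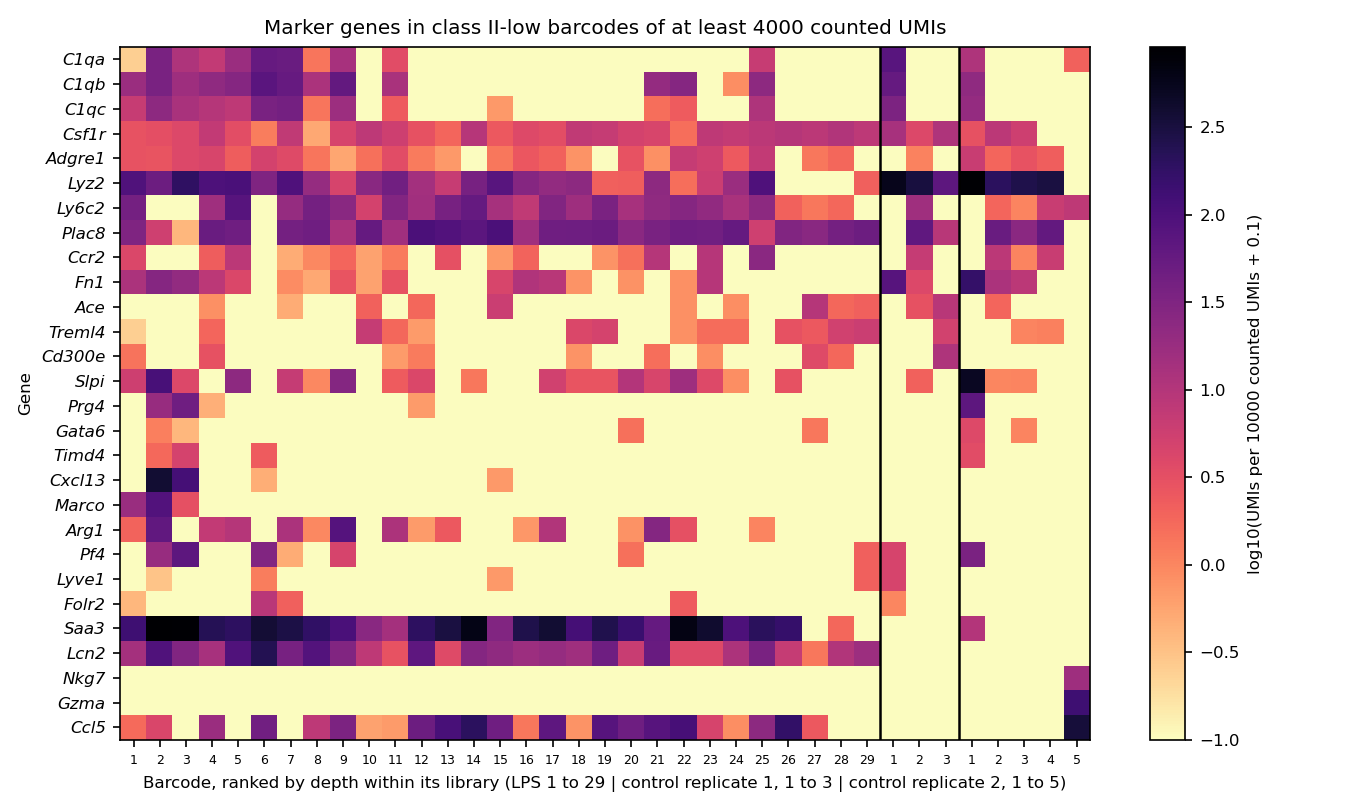
Marker genes (rows) in the 37 class II-low barcodes with at least 4000 counted UMIs (columns, ranked by depth within LPS, control replicate 1 and control replicate 2). Colour is log10 of UMIs per 10000 counted UMIs plus 0.1; Plac8 runs through most columns, C1q reaches 2 UMIs in 15 columns and Prg4 reaches 10 UMIs in 3.

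The first comparison asks what differed in class II-low barcodes 18 h after LPS. UMIs were summed per library and given as UMIs per 1000000 counted UMIs (CPM). The genes that rose with LPS included 5 of 7 acute-phase, 6 of 11 chemokine, 7 of 31 interferon-response and 4 of 8 iron-handling genes. These lists overlap, since Lcn2, Cp and Hp count in both the acute-phase and the iron list. Cx3cr1, Lyz2 and Fn1 fell, but the number of calls hung on how the 7 and 11 control barcodes were treated. Of 1785 genes tested, 64 rose (3.59%) and 15 fell (0.84%), together 4.43%, with Benjamini-Hochberg adjustment at 0.05 in edgeR's quasi-likelihood test. The gate gene S100a8 is 1 of the 64. For 77 of the 79 the LPS library stood outside the control pair. With 2 libraries against 1 the spread has 1 residual degree of freedom, and the lone LPS library is taken to vary as the controls do. Of all genes tested, 36.7% lay above both controls and 30.5% below both.

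The calls did not stand under every setting. Without the 2 control replicate 1 barcodes under 1000 UMIs 0 genes passed (228 at an unadjusted p under 0.05 in edgeR), and 0 passed in deep barcodes alone (200 unadjusted) or without the barcode with NK-cell genes (201 unadjusted), against 282 unadjusted in the comparison as made. With RLE scaling 14 genes were higher and 1 lower, so that 93.3% of calls were upward, against 81.0% with TMM scaling. DESeq2 called 9 higher and 2 lower. Of the named genes and list examples that passed, 12 passed with RLE scaling too, among them Lcn2, Cxcl13, Cxcl10, Arg1, Marco, AA467197, Sdc4, Cd38, Mt1 and Mt2, and 42 did not. Of the 12 genes with the largest decrease only Hpgd passed there.

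Lcn2, whose protein binds the iron carriers of bacteria, stood at 4281 CPM with LPS, against 0 and 0 CPM in control replicates 1 and 2, and was found in 29 of 29 deep LPS barcodes. It was at least 148-fold higher with LPS, against a floor of 3 UMIs over the controls (adjusted p = 1.45e-05, edgeR). Cd3-positive barcodes carried it as well, since 85.9% of them had a UMI of it with LPS, at 480 CPM, against 0 in those of both controls. Saa3, an acute-phase protein made by macrophages, stood at 28833 CPM with LPS, against 0 and 346 CPM in the controls (log2 fold change 7.14 ± 0.90 SE, adjusted p = 5.01e-04, edgeR). Its 24 control UMIs all lay in the Prg4-carrying barcode of control replicate 2, and it reached 10 UMIs in 26 of 29 deep LPS barcodes. In the list of acute-phase genes 5 of 7 measured members rose and 0 fell, with a median log2 fold change of 4.59, against -0.01 over all genes tested, and 1 of 7 passed with RLE scaling. Serpina3g, a protease inhibitor, was 45.4-fold higher (8.07 to 1798, 95% counting interval) and Cp, the copper oxidase ceruloplasmin, 25.2-fold higher (4.45 to 1001). Cp stood at 243 CPM with LPS in class II-low barcodes and at 231 CPM in Cd3-positive ones.

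Chemokine genes gave 6 calls upward of 11 measured and 0 downward, with a median log2 fold change of 4.46, or 3.07 with genes at 0 in both controls set to their bound, and 3 passed with RLE scaling. Cxcl10, which draws cells bearing Cxcr3, stood at 1217 CPM with LPS, against 0 and 0 CPM in control replicates 1 and 2, at least 42.02-fold higher (adjusted p = 3.73e-04). It was detected in 17 of 29 deep LPS barcodes and 1 of them held 50% of its UMIs. Ccl12, a ligand of Ccr2, stood at 401 CPM with LPS, against 0 and 0 CPM, at least 13.8-fold higher (adjusted p = 0.00253), in 11 deep barcodes. Cxcl13 was at least 123-fold higher with LPS, but 82.3% of its UMIs lay in 1 barcode, and it was detected in 4 of 29. Cxcl3, a neutrophil chemokine, likewise had 94.04% of its UMIs in 1 barcode and was at least 8.39-fold higher. Ccl5 stood at 3502 CPM with LPS, against 0 and 2482 CPM, and did not pass the test (adjusted p = 0.635). Its control UMIs all lay in the NK-gene barcode.

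Further genes that rose came from several lists. Arg1, arginase 1, stood at 1056 CPM with LPS, against 0 and 0 CPM in the controls, at least 36.5-fold higher (adjusted p = 3.73e-04), and was detected in 16 of 29 deep LPS barcodes, 9 of them with at least 10 UMIs. Acod1, which makes the antibacterial metabolite itaconate, stood at 291 CPM, against 0 and 0, at least 10.1-fold higher (adjusted p = 0.00857) and was detected in 21. Il1rn, the decoy ligand of the interleukin-1 receptor, was at least 13.2-fold higher and Cd38, an NAD-consuming ectoenzyme, at least 18.8-fold, in 25 and 26 of 29 deep barcodes. Il1r2, the decoy receptor, which is also a neutrophil marker, was at least 8.28-fold higher. The scavenger receptor gene Marco was at least 31.3-fold higher, with 76.6% of its UMIs in 1 barcode and 3 barcodes in all. Sdc4 (syndecan 4), AA467197 and Timp1, an inhibitor of matrix proteases, were at least 21.8-fold, 26.1-fold and 11.2-fold higher. In class II-high barcodes Sdc4 stood at 1347 CPM with LPS, against 73.8 and 116 CPM in control replicates 1 and 2. Lcn2 stood there at 2036 CPM with LPS, against 0 and 0 CPM, and Il1rn at 309.5 CPM, against 10.5 and 8.89 CPM. Higher values with LPS were thus not particular to class II-low barcodes for Sdc4, Lcn2 and Il1rn. Arg1 stood at only 10.7 CPM with LPS in class II-high barcodes, against 0 and 0 CPM, so a shared rise was not shown for it.

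Interferon-induced genes gave the most calls of any list, but theirs was also the longest list measured. The share that rose was 22.6%, against 71.4% of acute-phase and 54.5% of chemokine genes and 3.59% of all genes tested. Of 31 measured genes of the type I response 7 rose, 0 fell and 24 did not pass (19 had an unadjusted p under 0.05 in edgeR, while RLE scaling and DESeq2 called 0 of the list), and 25 of 31 lay above both controls, with a median log2 fold change of 1.83. Isg15, a ubiquitin-like modifier, stood at 1117 CPM with LPS, against 0 and 72.1 CPM in control replicates 1 and 2 (log2 fold change 4.59 ± 0.78, adjusted p = 0.00334, edgeR), and at 558 CPM in Cd3-positive LPS barcodes. Rsad2, the antiviral enzyme viperin, stood at 422 CPM with LPS, against 0 and 28.9 CPM, 21.8-fold higher (5.99 to 181). Ifi205, a nucleic acid sensor gene of a family of near-identical copies, was 42.7-fold higher (7.59 to 1692). Ifitm3, which blocks virus entry, stood at 5327 CPM with LPS, against 4491 and 3044 CPM, with an adjusted p of 0.609. Of guanylate-binding protein genes 1 of 7 measured passed, Gbp2 (3.54 ± 0.66), and all 7 lay above both controls. Of class I and immunoproteasome genes 1 of 16 passed, H2-Q7, which has near-identical neighbours, and 15 lay above both controls, among them B2m at 5488 CPM with LPS, against 2712 and 1414 CPM (adjusted p = 0.0867).

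Promoters of 3 genes that rose are shown, Isg15 and Rsad2 of the interferon list and the chemokine gene Cxcl10. Interferon-inducible genes often carry paired GAAA elements near their start. Only promoters that held a match were picked for printing, so the matches in them are no result. The window runs from 250 bases before to 50 after the gene start, from RefSeq on GRCm38.p6, and capitals mark GAAA, any 2 bases and GAAA again, on either strand, with overlapping matches run together. The lines are given on each gene's own strand.
Isg15: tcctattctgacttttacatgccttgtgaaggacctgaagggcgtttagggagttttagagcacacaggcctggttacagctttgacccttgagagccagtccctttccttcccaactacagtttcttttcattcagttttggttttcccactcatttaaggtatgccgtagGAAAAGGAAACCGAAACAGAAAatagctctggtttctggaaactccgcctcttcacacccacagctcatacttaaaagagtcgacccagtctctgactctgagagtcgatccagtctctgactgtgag
Rsad2: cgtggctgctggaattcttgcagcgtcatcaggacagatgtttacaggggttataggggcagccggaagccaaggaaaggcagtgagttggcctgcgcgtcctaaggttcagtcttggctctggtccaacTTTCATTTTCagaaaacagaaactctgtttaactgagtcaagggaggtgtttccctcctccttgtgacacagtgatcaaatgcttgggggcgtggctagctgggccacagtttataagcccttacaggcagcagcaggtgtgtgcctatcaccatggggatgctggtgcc
Cxcl10: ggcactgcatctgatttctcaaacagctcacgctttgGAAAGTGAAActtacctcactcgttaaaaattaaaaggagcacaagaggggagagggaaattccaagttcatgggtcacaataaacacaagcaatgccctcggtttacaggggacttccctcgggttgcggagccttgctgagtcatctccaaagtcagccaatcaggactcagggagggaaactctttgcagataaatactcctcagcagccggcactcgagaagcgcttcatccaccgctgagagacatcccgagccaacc
These lie at chr4:156200769-156201068, chr12:26456403-26456702 and chr5:92348840-92349139, all on the minus strand. The motif was in 9 of the 49 higher genes with a promoter in the table (18.4%), against 93 of 1418 genes tested (6.56%) and 1079 of all 27025 genes (3.99%). Of the 6 interferon-list genes that rose and had a promoter 4 held it, and of the other higher genes 5 of 43. A match describes letters in this window only.

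Metal-binding genes and phagocyte receptors gave further calls. Of iron and haem genes 4 of 8 measured rose and 0 fell, and 1 passed with RLE scaling and 1 in DESeq2. Among the 4, Lcn2, Cp and Hp are also counted in the acute-phase list. Hp, haptoglobin, which binds free haemoglobin, stood at 2152 CPM with LPS, against 87.5 and 260 CPM (3.51 ± 0.58, adjusted p = 0.00305), and Fth1, ferritin heavy chain, at 15049 CPM, against 3907 and 4747 CPM (1.81 ± 0.43, adjusted p = 0.0298). Ftl1, ferritin light chain, stood at 5160 CPM, against 4840 and 5771 CPM, and did not pass. Both measured metallothioneins, zinc and copper binders, rose: Mt1 stood at 2472 CPM with LPS, against 292 and 202 CPM, and at 918 CPM in Cd3-positive LPS barcodes, and Mt2 was at least 37.3-fold higher, with 594 CPM in those barcodes. Of Fc and complement receptor genes 3 of 9 measured rose, Fcgr4 (3.31 ± 0.65), the inhibitory receptor gene Fcgr2b (2.74 ± 0.68) and Pirb (2.34 ± 0.59), which shares sequence with the Pira genes. Each of the 3 was detected in 29 of 29 deep LPS barcodes. In the list of LPS receptor and feedback genes 3 of 12 measured rose, Il1rn, Acod1 and Sod2, the mitochondrial superoxide dismutase gene (4.35 ± 0.65), and 0 of the list passed with RLE scaling or in DESeq2. Of 19 lysosome genes 0 passed in edgeR, with 3 at an unadjusted p under 0.05, and of 15 immediate-early genes 0 passed, with 4.

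Genes that fell with LPS rested on few control cells. Cx3cr1, the fractalkine receptor gene of patrolling monocytes and intimal macrophages, stood at 3.22 CPM with LPS, against 671 and 159 CPM in control replicates 1 and 2, which is 102-fold lower (26.1 to 876; adjusted p = 0.00194). It was detected in 0 of 29 deep LPS barcodes, against 3 of 3 and 3 of 5 in the controls. Its log2 difference was -3.99 without control replicate 1 and -5.80 without control replicate 2, both with no test. In class II-high barcodes it stood at 26.7 CPM with LPS, against 327 and 489 CPM. Hpgd, which breaks down prostaglandins, stood at 4.83 CPM with LPS, against 379 and 202 CPM, 54.0-fold lower (16.6 to 278; adjusted p = 0.00166). Lyz2, lysozyme, which can share reads with Lyz1, stood at 4991 CPM with LPS, against 30704 and 41554 CPM (log2 fold change -2.85 ± 0.54, adjusted p = 0.00738), and was 6.15-fold lower against control replicate 1 and 8.33-fold lower against control replicate 2. In the controls 59.8% and 71.0% of its UMIs lay in 1 barcode each.

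Several other decreases rested on 1 control barcode. Fn1 stood at 639 CPM with LPS, against 2683 and 6074 CPM (-2.81 ± 0.62, adjusted p = 0.0186), but 95.7% and 94.5% of its UMIs in control replicates 1 and 2 lay in 1 barcode each, and without each library's deepest barcode its log2 fold change turned to 0.79. Ltc4s, leukotriene C4 synthase, stood at 28.97 CPM with LPS, against 408 and 390 CPM, and 92.9% and 100% of its control UMIs were in 1 barcode. Cd36, a scavenger receptor for oxidised lipids, stood at 32.2 CPM, against 233 and 332 CPM, with 87.5% and 91.3% in 1 barcode. F5, coagulation factor V, stood at 17.7 CPM, against 29.2 and 563 CPM, and its log2 difference was -0.24 without control replicate 2. St8sia4, Fam129a, Tmcc1, Txnip and Trps1 were the other named genes that fell, with log2 fold changes between -5.25 and -2.49. Gzma, with 70 UMIs in control replicate 2 and 0 elsewhere, passed as well and lay in the NK-gene barcode.

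**Figure D3:**
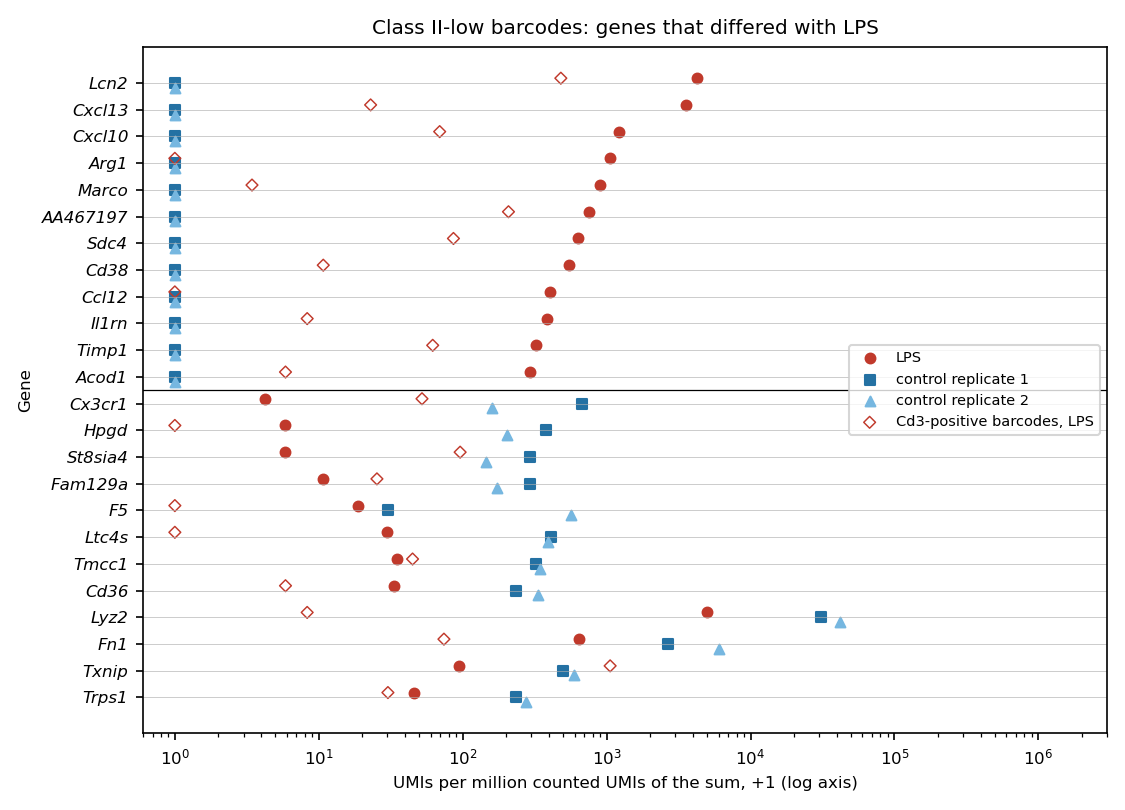
Levels of the 12 genes with the largest increase (above the line) and of 12 that fell (below it) in the class II-low sums of LPS and both controls, as UMIs per 1000000 counted UMIs plus 1 on a log axis, 1 point per library. Open diamonds give the LPS library's Cd3-positive barcodes; all 12 upper genes stood at 0 in both controls, and LPS lay below both controls for the lower ones.

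The gate genes C1qa, C1qb and Csf1r lay between the controls with LPS, and monocyte genes moved both ways. C1qa stood at 1073 CPM with LPS, against 2799 and 721 CPM, C1qb at 1867 CPM, against 2362 and 1053 CPM, and Csf1r at 431 CPM, against 846 and 346 CPM. S100a8, which the gate limits, stood at 248 CPM with LPS, against 0 and 0 CPM. Of 9 measured monocyte genes 2 rose and 1 fell. Ly6c2 stood at 2100 CPM with LPS, against 467 and 188 CPM (2.80 ± 0.52, adjusted p = 0.00652), and can share reads with Ly6c1, while Ms4a4c rose (2.10 ± 0.54) and Fn1 fell. Without control replicates 1 and 2 in turn the log2 difference of Ly6c2 was 3.66 and 2.55. Plac8 stood at 3397 CPM, against 2158 and 2049 CPM, with an adjusted p of 0.467. Of 6 patrolling monocyte genes 0 passed in edgeR, with 1 at an unadjusted p under 0.05 and Itgal, an integrin chain, at 114 CPM, against 583 and 231 CPM. In the list of receptors and enzymes of sphingosine-1-phosphate, the lipid named in the study's title, only S1pr5 passed the filter on low counts, at 11.3 CPM with LPS, against 233 and 0 CPM.

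The second comparison sets class II-low against class II-high barcodes of the same libraries. Since the rule drew both sides by class II transcripts, these values describe the split and are no test of it. Of the lists, 8 of 10 monocyte, 5 of 16 homing and 4 of 8 clotting genes stood higher past the threshold on the class II-low side, and 4 of 8 class II pathway genes outside the gate stood lower, as did Dnase1l3, Mmp12 and Mmp13. Over 4672 genes, 106 passed upward (2.27%) and 128 downward (2.74%) with library as a block, from which nothing is read here beyond the values. Gate genes are 1 of the 106 (S100a8) and 8 of the 128, among them the 4 class II genes of the cut. Without the block 3 passed upward and 13 downward, without control replicate 2 27 and 39, and in deep barcodes alone 27 and 41. Depth differed as well, since 15 of 161 class II-high barcodes were deep with LPS, against 4 of 55 and 29 of 163 in the controls.

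Ly6c2 stood at 2100, 467 and 188 CPM in class II-low barcodes of LPS, control replicate 1 and control replicate 2, against 10.7, 21.1 and 3.56 CPM in class II-high ones (log2 fold change 6.40 ± 0.59 SE). Plac8 stood at 3397, 2158 and 2049 CPM, against 712, 454 and 78.3 CPM (2.87 ± 0.46). Ifitm6 stood at 193, 787 and 491 CPM, against 21.3, 84.4 and 1.78 CPM (4.13 ± 0.52). These genes were higher on the class II-low side in each of the 3 libraries. The monocyte list had 8 of 10 members past the threshold upward and a median log2 fold change of 3.16, against -0.06 over all genes. In deep barcodes alone it had 4 of 9, and without the library block 2 of 9. Fn1 stood at 639, 2683 and 6074 CPM, against 147, 52.7 and 110 CPM. Slpi stood at 1299, 58.3 and 17127 CPM, against 26.7, 0 and 1.78 CPM, with the control replicate 2 value carried by its deepest barcode. Ccr2 did not follow, at 212, 204 and 231 CPM, against 29.3, 496 and 76.5 CPM.

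Adhesion and clotting genes were among those higher on the class II-low side. Itgam, the CD11b integrin chain, stood at 1337, 379 and 361 CPM in class II-low barcodes of LPS and control replicates 1 and 2, against 315, 116 and 28.5 CPM in class II-high ones, and Itga4, a chain of the integrin VLA-4, at 565, 554 and 361 CPM, against 195, 84.4 and 46.3 CPM. In all 5 of 16 receptor and homing genes passed upward and 0 downward, with 1 of 13 in deep barcodes alone, 0 of 15 without the library block and 2 of 16 without control replicate 2. Among clotting genes 4 of 8 passed upward, with 2 of 6 in deep barcodes alone and 1 of 5 without the library block. Of these, F10, coagulation factor X, stood at 475, 29.2 and 202 CPM, against 66.7, 21.1 and 0 CPM, and F13a1, a factor XIII subunit, at 274, 233 and 173 CPM, against 21.3, 52.7 and 8.89 CPM. Clec4e, the lectin Mincle, Ceacam1, Mcemp1 and Pygl (liver glycogen phosphorylase) were also among the largest differences, between 3.54 and 4.32 on the log2 scale.

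Single genes lay far lower on the class II-low side. Dnase1l3, a secreted DNase, stood at 9.66, 0 and 0 CPM in class II-low barcodes of LPS and control replicates 1 and 2, against 630, 190 and 327 CPM in class II-high ones (-6.19 ± 0.61). Mmp12, macrophage elastase, stood at 4.83, 0 and 130 CPM, against 259, 454 and 1943 CPM (-4.76 ± 0.51), and Mmp13, a collagenase, at 1.61, 0 and 0 CPM, against 90.7, 84.4 and 272 CPM. The list of matrix and protease genes that holds both went either way, with 3 of 15 past the threshold upward and 4 downward (median 0.03). Cd72, an inhibitory receptor also known from B cells, stood at 14.5, 29.2 and 0 CPM, against 502, 221 and 573 CPM. Zmynd15, the adhesion gene Cadm1, H2-M2, the lectin Cd207 (langerin), Asb2 and the growth factor gene Pdgfb complete the 10 with the largest decrease, between -5.54 and -4.09 on the log2 scale. Of 8 class II pathway genes that the gate did not use 4 passed downward, among them Ciita, the master regulator of class II genes, at 4.83, 0 and 0 CPM, against 18.7, 200 and 167 CPM, and H2-DMb1, which helps to load peptides, at 51.5, 87.5 and 86.6 CPM, against 467, 865 and 911 CPM. Ctss, the cathepsin that trims the invariant chain, stood at 2411, 2070 and 1414 CPM, against 3319, 2247 and 1998 CPM, and did not pass.

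**Figure D4:**
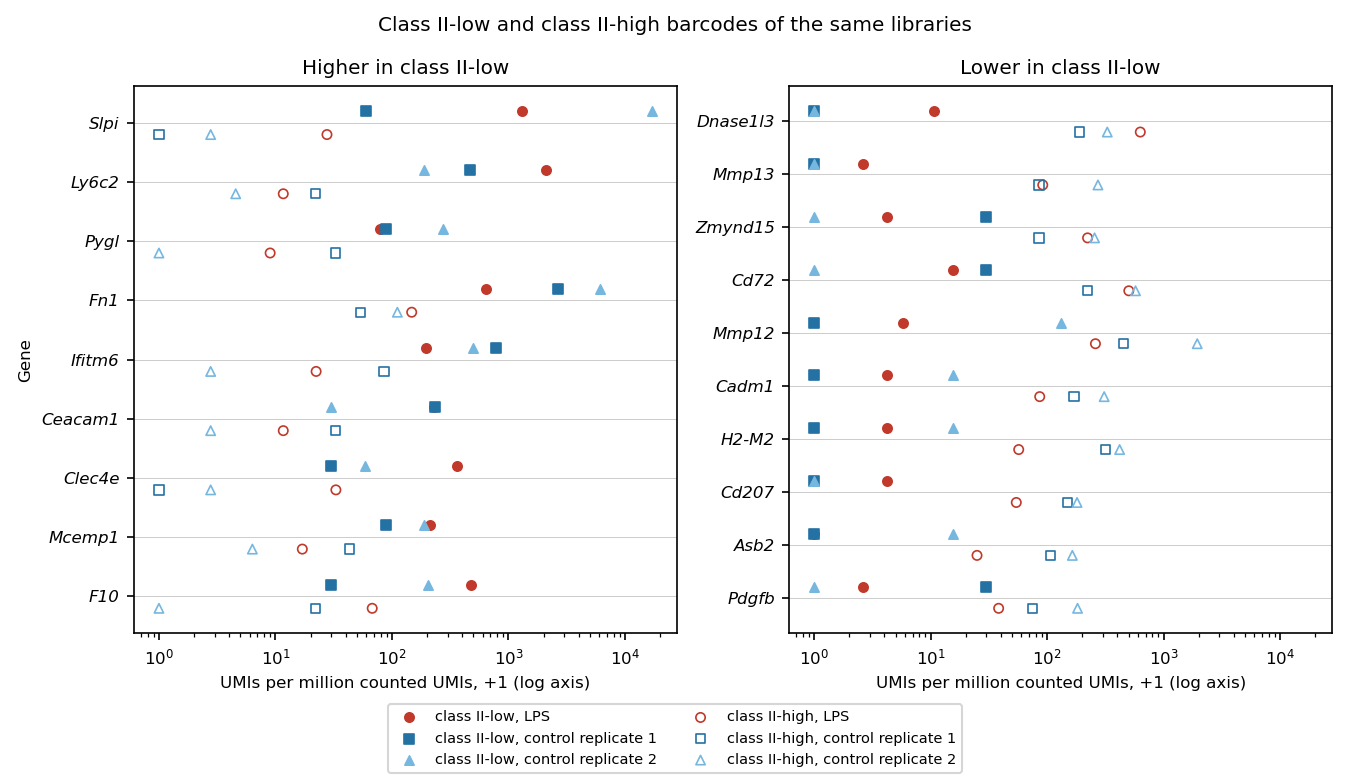
Levels in class II-low (filled) and class II-high (open) sums of 9 genes among those with the largest positive difference and of the 10 with the largest negative one, as UMIs per 1000000 counted UMIs plus 1 on a log axis. Each symbol is a library (circle LPS, square control replicate 1, triangle control replicate 2); filled symbols lie right of the open one of the same library in the left panel and left of it in the right panel.

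The last comparison asks whether the response to LPS differed between both sides, tested as an interaction in a fit that keeps each library as a block. Of 6150 genes 9 passed (0.146%; edgeR, 230 at an unadjusted p under 0.05), 5 with a larger and 4 with a smaller LPS change in class II-low barcodes, and 0 passed in DESeq2 (23 unadjusted). Maf, a macrophage transcription factor gene chosen here after its values were seen, stood at 365 CPM with LPS, against 58.3 and 43.3 CPM in class II-low barcodes, and at 93.4 CPM with LPS, against 116 and 149 CPM in class II-high ones (3.60 ± 0.88, adjusted p = 0.0323).

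On the mm10 assembly, GENCODE release M21 places Ly6c2 (ENSMUSG00000022584) on chromosome 15 from 75108158 to 75111970, Cx3cr1 (ENSMUSG00000052336) on chromosome 9 from 119901616 to 120069879 and Arg1 (ENSMUSG00000019987) on chromosome 10 from 24915221 to 24927484. Saa3 (ENSMUSG00000040026) runs from 46711998 to 46715700 on chromosome 7 and Lyz2 (ENSMUSG00000069516) from 117277331 to 117282321 on chromosome 10. All are protein-coding, and these are whole gene bodies, of which the assay counts molecules near the 3′ end.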

How the data were processed

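Raw UMI counts for each gene in each barcode were deposited; per the submitters' processing notes the authors used Cell Ranger 3.1, R 4.2.1, Seurat 4.2.0 and mm10. The sources used here do not give the rule that picked barcodes. The libraries held 21864072 (LPS), 4940996 and 20069697 (control replicates 1 and 2) UMIs over 32285 genes. Computed here were the gate, sums per library and tests. The class II-low sums held 621378 counted UMIs with LPS, against 34295 and 69307 in the controls, which limits precision in the controls. No doublet caller was run.

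Sums were tested with edgeR 4.0.16 (quasi-likelihood, TMM, filterByExpr, Benjamini-Hochberg at 0.05) in R 4.3.3. The code was also run on simulated sums. These held no unlike barcodes, so that run does not bear on how calls hung on single ones. DESeq2 1.42.0 was an alternative. CPM values are not TMM-scaled. Folds against 0 use a floor of 3 UMIs over the group, and 1 to 3 UMIs give a ratio with its counting interval. Labels do not say whether libraries are separate experiments, so p-values measure the spread between these samples, which may be technical. Sums of both gate sides of a library come from the same pool, which is why library is a block there. The members and gene lists were chosen with earlier results of these data known. Named genes were the largest changes that passed, averaging 50 CPM or more, with the LPS value outside both controls. Genes that rose also had to be at least 2-fold above Cd3-positive barcodes with LPS, and genes that fell in each control. For class II-low against class II-high the same direction in all 3 libraries was asked instead. Gate, predicted, ribosomal, haemoglobin and mitochondrial genes were left out. Per list up to 4 that passed and 3 that did not were named. Alternatives changed scaling, the low-count filter, tool, block, libraries, depth and gate. Some genes that met the rule are not reported here.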

Additional observations from a re-analysis of the deposited data

Results flagged for a closer look

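The LPS change of 9 genes differed between class II-low and class II-high barcodes in the test of that difference (edgeR, library as a block). The 6 with the largest differences are given here. Each value is the log2 change in class II-low minus that in class II-high barcodes. Ccl5 gave -10.53 (3502 CPM with LPS, against 0 and 2482 CPM in class II-low, and 23253 CPM with LPS, against 0 and 10.7 CPM in class II-high barcodes). Prg4 gave -6.64 (404 CPM with LPS, against 0 and 2323 CPM, and 69.4 CPM with LPS, against 0 and 3.56 CPM). Ccl12 gave 9.09 (401 CPM with LPS, against 0 and 0 CPM, and 48.0 CPM with LPS, against 21.1 and 30.2 CPM). Cxcl2, a neutrophil chemokine, gave 5.04 (806 CPM with LPS, against 0 and 14.4 CPM, and 360 CPM with LPS, against 0 and 224 CPM). Sdf2l1, a chaperone gene of the endoplasmic reticulum, gave 4.25 (224 CPM with LPS, against 29.2 and 57.7 CPM, and 48.0 CPM with LPS, against 116 and 221 CPM). Selp, P-selectin, gave -4.22 (126 CPM with LPS, against 0 and 216 CPM, and 219 CPM with LPS, against 10.5 and 16.01 CPM). Prg4 and Ccl5 in control replicate 2 rested mainly on 1 barcode each. Without control replicate 2 Prg4 turned to 2.51 and Selp to 0.69, Ccl5 stood at -2.64 and Cxcl2 at 1.23, with no test possible. None of the 6 passed in DESeq2.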

How the results depend on the processing

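For LPS against control the 79 calls became 15 with RLE scaling, 137 without the low-count filter, 11 in DESeq2 and 0 with at least 1000 UMIs per barcode. They became 165 with class II under 1%, 9 with gate genes at 1% of UMIs or more, 50 with a C1q UMI required, 132 without barcodes over 20% Gm42418, 52 with sums thinned to the smallest total and 142 with the left-out genes kept. Of alternatives chosen after seeing the data, deep barcodes, leaving out NK genes and thinning each barcode to 500 UMIs (14 unadjusted) gave 0, deep barcodes with at most 1 C1q UMI 52 (31 of the 79), leaving out the deepest barcodes 129 (58 of the 79) and leaving out Prg4 barcodes 121 (53 of the 79). The cause was not tested; edgeR's prior degrees of freedom were 12.6 in the comparison as made, 4.36, 4.54 and 2.99 at 1000 UMIs, in deep barcodes and without NK genes. Other alternatives gave 68 to 107. The median log2 fold change of all genes was -0.13 in DESeq2 (over 12580 genes), against -0.01 as made. Without either control no test is possible. All 24 named genes kept their direction there, which the naming rule fixed in advance, since it asked for an LPS value outside both controls. The 12 higher ones stood at 5.70 to 9.56 without control replicate 1 and 5.63 to 9.48 without replicate 2. Of the named genes and list examples that passed, where a setting measured them, Fn1 alone reversed, to 0.79 without the deepest barcodes. Other genes were not checked for this.

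Class II-low against class II-high had 234 calls, 16 without the block, 84 in DESeq2, 124 with a C1q UMI, 68 in deep barcodes, 15 thinned to 500 UMIs, 143 without the deepest barcodes, and 66 to 229 leaving out a library (119 without LPS). Tagln reversed, to 0.26, with thinning. The interaction's 9 calls became 0 in DESeq2, 2 without the block and 0 with a C1q UMI. Without control replicates 1 and 2 in turn, the difference stood at -5.11 and 2.51 for Prg4 and at -3.80 and 0.69 for Selp, both reversed without replicate 2. The block changed these calls; the pairing comes from the shared pool. No paired analysis was possible because the labels do not number mice or pools across LPS and control. Shares of gated barcodes became 22.4% (LPS) at a 0.25% cut, and 44.8% (LPS) and 12.1% (control replicate 2) at 1%. In deep barcodes they were 65.9% with LPS (29 of 44, limits 50.1 to 79.5). The controls there had 42.9% (3 of 7, 9.90 to 81.6) and 14.7% (5 of 34, 4.95 to 31.1). LPS lay above both controls each time, but in deep barcodes the limits of control replicate 1 held the LPS share. Control sums of 34295 and 69307 UMIs limit genes under about 50 CPM.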

Other observations

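Some genes outside the lists led above also passed with LPS in class II-low barcodes. Cfb, complement factor B, stood at 869 CPM with LPS, against 0 and 14.4 CPM in control replicates 1 and 2, and was detected in 29 of 29 deep LPS barcodes. Pla2g7, which cleaves platelet-activating factor, stood at 1316 CPM with LPS, against 146 and 202 CPM (log2 fold change 2.88 ± 0.55 SE), and Txn1, thioredoxin, at 1677 CPM, against 321 and 390 CPM (2.23 ± 0.49). Hif1a, the oxygen-sensing transcription factor gene, stood at 360 CPM with LPS, against 29.2 and 28.9 CPM, and at 217 CPM in Cd3-positive LPS barcodes. Cd274, the checkpoint ligand PD-L1, was at least 8.23-fold higher. Pla2g7 and Txn1, which are on no list, were chosen after their values were seen.

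Further values set class II-low beside class II-high barcodes, again as a description. Ms4a7 stood at 27.4, 117 and 159 CPM in class II-low barcodes of LPS and control replicates 1 and 2, against 491, 570 and 1002 CPM in class II-high ones. Cxcl16, a chemokine and scavenger receptor, stood at 62.8, 146 and 14.4 CPM, against 550, 485 and 612 CPM, and Axl, a receptor for dying cells, at 45.1, 0 and 57.7 CPM, against 152, 127 and 311 CPM. Cebpb, a transcription factor gene of monocytes and macrophages, stood higher on the class II-low side, at 2042, 1341 and 967 CPM, against 1051, 232 and 197 CPM. Nr4a1, which patrolling monocytes need, stood at 96.6, 58.3 and 173 CPM, against 13.3, 52.7 and 14.2 CPM. These genes had the same direction in all 3 libraries. They were chosen after their values were seen.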
